A study of Danio rerio with 6 samples.

Results

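NITRs, a family of immune-type receptors, and DICPs, diverse immunoglobulin domain-containing proteins, are cell surface receptors of teleost fish. Their genes were taken as the rows of the count table whose name starts with nitr or dicp followed by a digit. The rule found 32 of the 32057 rows, 24 nitr genes and 8 dicp genes. A gene named dicp1.16 also stands in the name table but matched no row, and was not analysed here.

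NITRs carry a variable-type immunoglobulin domain on the outside of the cell, and most zebrafish NITRs carry inhibitory tyrosine motifs in the cytoplasmic tail that can recruit phosphatases such as Ptpn6. Nitr9 is an activating member that signals through the adaptor Dap12, the product of tyrobp. The family is compared with the natural killer cell receptors of mammals, although the genes are not orthologues. DICPs are a separate family with related immunoglobulin domains, also with inhibitory and activating forms. Both families lie in clusters of close copies.

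The RNA came from blood cells of the kidney marrow, the blood-forming tissue of adult zebrafish. Tg fish carried Tg(drl:hoxa9;hsp70:meis1), with hoxa9 driven in blood cells by the draculin (drl) element and meis1b by a heat shock promoter, and were compared with WT fish of the AB strain. Fish of both genotypes were about 5 months old by the labels, and the results text of the study gives a younger age. Each sample held the pooled cells of 3 kidneys, with 3 pools per genotype. Both transgenic lines behind the double transgenic fish were made in embryos of the study's WT stock. The heat shocks given to the sequenced fish are not stated in the sources used here. In bulk RNA, fewer cells of a type and less RNA per cell cannot be told apart.

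Libraries held 50767535 to 64055374 counts in Tg and 53620374 to 64888212 in WT. Levels are given as CPM, counts scaled to library size with TMM factors. A count of 0 in a library allows a level of up to 0.0457 to 0.0606 CPM, taking 3 counts as the limit, and this limit covers counting error only. The row of hoxa9a read 64.5, 78.1 and 100.9 CPM in Tg and 0, 0.143 and 0.960 CPM in WT. The row of meis1b read 77.2, 56.1 and 52.5 CPM in Tg and 21.4, 24.5 and 26.7 CPM in WT, so that both transgenes' genes were higher in every Tg pool. Kidney tubule markers summed to 1599 to 2004 CPM in Tg and to 5950, 2195 and 2528 CPM in WT. Every Tg sum was under every WT sum, and WT replicate 1 stood apart. Of 20 log2 fold changes 18 were negative. At an unadjusted p under 0.05 stood 9 rows, all lower, beside 2165 lower among the 20123 genes tested (19.8% in both directions together). In 9 rows all Tg pools lay below all WT pools (14.1% of all genes tested). The 1 row past the test was slc12a3, beside 0.596% of all genes tested. CPM takes no account of gene length, and levels are therefore not ranked between genes as transcript numbers. How reads of close copies were shared out is not given, so single rows of both families are uncertain and sums are given beside them.

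The families differed in the number of reads assigned to them. The 8 dicp genes together read 144, 259 and 217 CPM in Tg replicates 1, 2 and 3, against 140, 180 and 138 CPM in WT. Tg replicate 1 lay among the WT pools, and the genotypes overlapped. The 3 genes dicp3.3, dicp3.1 and dicp1.1 took 86.3 to 93.7% of all counts of the 32 genes in Tg and 85.6 to 89.8% in WT. The 24 nitr genes together read 12.2, 10.04 and 10.7 CPM in Tg, against 12.99, 11.2 and 11.99 CPM in WT. The ratio of the means, Tg over WT, was 1.35 for the dicp genes and 0.910 for the nitr genes, and both sums overlapped between genotypes. For the 5 dicp genes other than dicp3.3, dicp3.1 and dicp1.1 it was 0.714 (6.70 CPM in Tg and 9.39 CPM in WT), also with overlap.

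**Figure D1:**
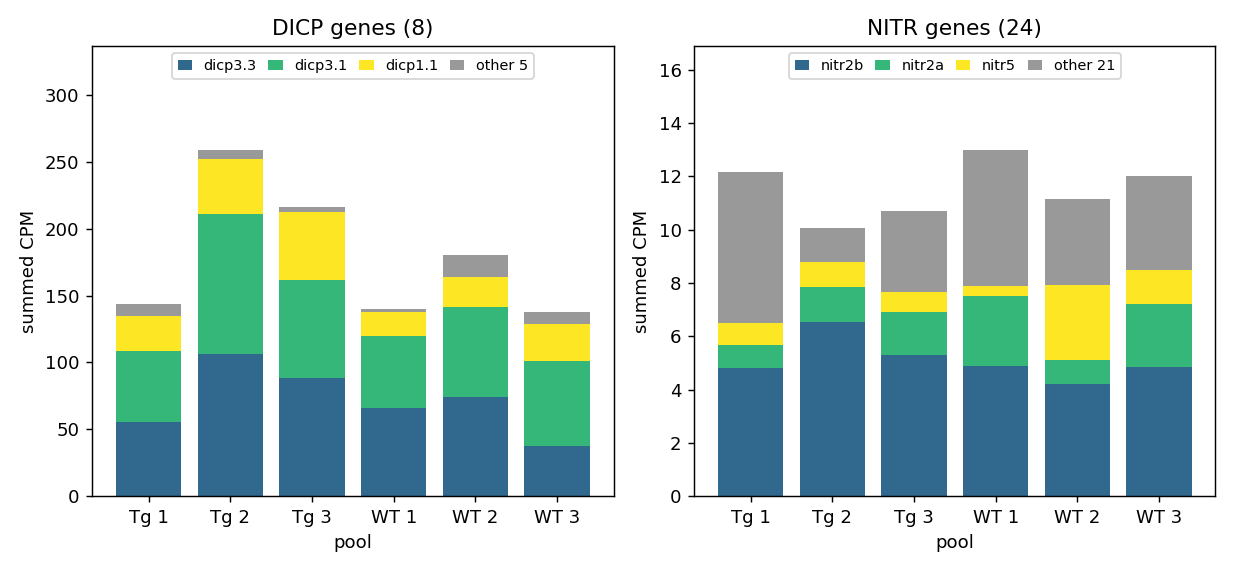
Summed CPM (y axis) of dicp genes (left) and nitr genes (right) in each pool (x axis), split by gene. The dicp sum was highest in Tg 2 (259 CPM) and Tg 3 (217 CPM), while the nitr sum stayed between 10.04 and 12.99 CPM in all 6 pools and was carried in large part by nitr2b.

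Of the 32 genes, 16 passed the filter on low counts (8 of each family) and were tested in a fit over 20123 genes. None of the 16 differed between Tg and WT at an adjusted p (FDR) under 0.05 by edgeR's quasi-likelihood test, against 0.596% of all genes tested. By DESeq2 and limma-voom none passed either. On simulated data, with changes set in genes drawn from all those tested, these tests recovered 1 to 28% of 2-fold changes. The 28% was by DESeq2, with 71 false calls among 171. A 2-fold change was thus mostly missed in the simulation. Far fewer genes were changed there than the 19.8% at an unadjusted p under 0.05 in the real data, so recovery in these data may differ. Recovery was not simulated for the receptor genes alone, whose median level was 0.864 CPM, beside 10.2 CPM over all genes tested. At an unadjusted p under 0.05 stood 1 of the 16, dicp1.1, against 19.8% of all genes tested. Among the 16, 7 log2 fold changes (Tg over WT) were positive and 9 negative, with a median of -0.21, beside 0.01 over all genes tested. The sign of the median turned without Tg replicate 1 (0.23 over 17 genes), WT replicate 1 (0.027 over 19) or WT replicate 2 (0.041 over 21). The filter was rerun each time, so the receptor genes tested changed as well. Among the genes tested the families leaned apart, with 6 of 8 dicp genes positive (median 0.41) and 7 of 8 nitr genes negative (median -0.71). In a fit without the filter, the 13 further receptor genes with counts, all nitr, split into 6 positive and 7 negative. The nitr genes tested are low in count, and the median over all tested genes with a mean under 10 CPM was -0.17, with 5749 of 10001 negative. Those genes are not matched to the nitr genes for level (median 1.97 CPM, against 0.4955 CPM). A difference between the families was not tested.

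In dicp1.3-4 alone among the 16 genes did all Tg pools read above all WT pools, which held for 14.0% of all genes tested. In nitr13 alone did all Tg pools read below all WT pools, against 14.1% of all genes tested. Both counts, 1 of 16, are under the share over all genes. Within the WT pools the highest level exceeded the lowest by more than the fitted fold change between genotypes in 11 of the 16 genes (70.1% of all genes tested), and within the Tg pools in 14 of 16 (67.7% of all genes tested).

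**Figure D2:**
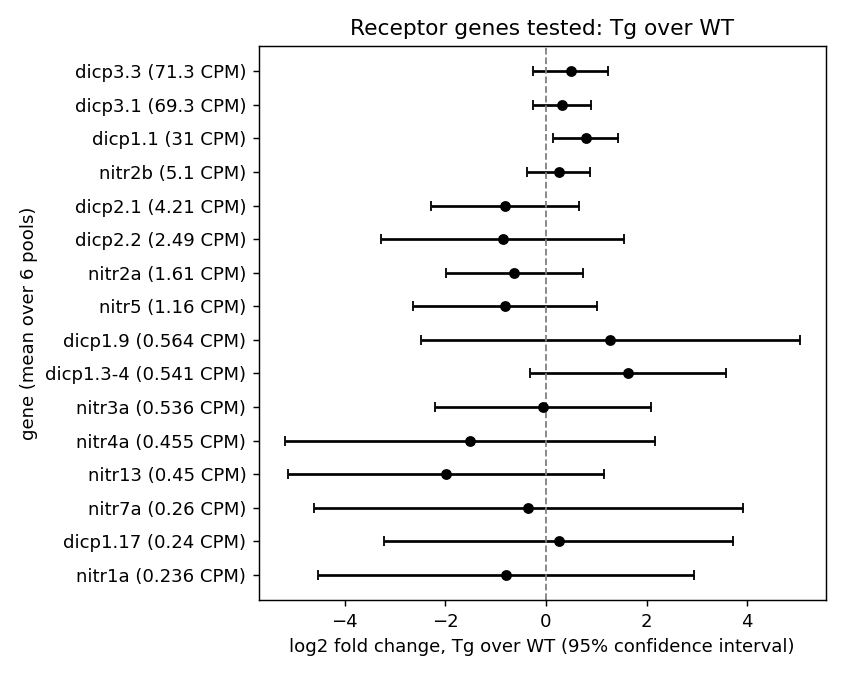
Log2 fold change, Tg over WT (x axis, points), with its 95% confidence interval (bars) for the 16 receptor genes tested (y axis, ordered by mean CPM). The interval of dicp1.1 (0.13 to 1.44) is the one that lies clear of 0 before adjustment, and the intervals are wider for the low genes at the bottom.

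The gene with the smallest p was of the dicp1 subfamily. The row dicp1.1 (ENSDARG00000091993) read 25.8, 40.6 and 51.2 CPM in Tg, against 18.0, 22.3 and 27.9 CPM in WT. Tg replicates 2 and 3 lay above every WT pool and Tg replicate 1 below WT replicate 3. The mean was 39.2 ± 12.7 CPM in Tg and 22.7 ± 4.92 CPM in WT (SD, n = 3 each). The log2 fold change was 0.79 (standard error, SE, 0.28, unadjusted p = 0.0248, adjusted p = 0.189, quasi-likelihood test). Without Tg replicate 1 the log2 fold change was 1.01 (adjusted p = 0.0982), and without Tg replicate 3 it was 0.55 (adjusted p = 0.438). DESeq2 gave an adjusted p of 0.0743.

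The row named dicp1.3-4 (ENSDARG00000115199) read 0.393, 1.03 and 1.03 CPM in Tg, against 0.181, 0.269 and 0.335 CPM in WT. Every Tg pool was above every WT pool, at 21 to 62 counts in Tg and 10 to 22 in WT. The log2 fold change was 1.64 (SE 0.83, adjusted p = 0.326), with an interval of -0.31 to 3.58. The other 2 dicp1 rows showed no such order. The row dicp1.9 read 0.319, 2.08 and 0 CPM in Tg, against 0.200, 0.359 and 0.427 CPM in WT, so that its highest and lowest values both fell among the Tg pools. With 103 counts in Tg replicate 2 and none in Tg replicate 3, dicp1.9 was at least 41.6-fold higher in Tg replicate 2 at a limit of 3 counts. The last, dicp1.17, ranged from 0.217 to 0.303 CPM in Tg and from 0 to 0.520 CPM in WT.

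The dicp3 genes were the most heavily read. The row dicp3.1 (ENSDARG00000099674) read 53.4, 105 and 73.3 CPM in Tg, against 53.5, 67.6 and 63.4 CPM in WT. The row dicp3.3 (ENSDARG00000087706) read 55.4, 106 and 88.3 CPM in Tg, against 65.9, 74.1 and 37.5 CPM in WT. In both genes Tg replicate 2 was highest, then Tg replicate 3, then WT replicate 2, while Tg replicate 1 fell within or under the WT range. For dicp3.1 the log2 fold change was 0.33 (SE 0.24, adjusted p = 0.511), and the 95% interval ran from 0.841-fold to 1.87-fold. For dicp3.3 it was 0.49 (SE 0.32, adjusted p = 0.439), with an interval of 0.840-fold to 2.36-fold. Without Tg replicate 1 the values were 0.53 and 0.72 (adjusted p = 0.199 and 0.225), and without Tg replicate 2 they were 0.041 and 0.28 (adjusted p = 0.946 and 0.746).

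Some neutrophil markers were high in some of the same pools. Of 17 genes on the neutrophil list 11 matched a row, and mpx, a neutrophil marker of the study, did not. The 11 rows summed to 18110, 30670 and 24570 CPM in Tg, against 14190, 22310 and 13120 CPM in WT. Lysozyme (lyz), a neutrophil and macrophage enzyme, made up the largest part, with 9111, 15850 and 12440 CPM in Tg and 7286, 12830 and 7342 CPM in WT. The sum, carried by lyz and npsn, was highest in Tg replicate 2, then Tg replicate 3, then WT replicate 2, but the list as a whole did not share that order with the dicp3 genes. Sums over the signalling partner and cytotoxic lymphocyte lists, described below, were also highest in Tg replicate 2, then Tg replicate 3. In 6 of the 11 rows all Tg pools lay above all WT pools, which held for 14.0% of all genes tested. The list's median log2 level relative to the WT mean was 0.35, 1.05 and 0.78 in Tg, against 0.077, 0.20 and -0.25 in WT. None of the 11 passed the test, none was at 0, and their median log2 fold change was 0.77. Of the 11 log2 fold changes 9 were positive. The 2 negative ones were those of csf3r (-0.39) and mmp13a (-0.093), both highest in WT replicate 2 (405.3 and 88.05 CPM). At an unadjusted p under 0.05 stood 7, all higher, beside 1826 higher among the 20123 genes tested (19.8% in both directions together). The smallest adjusted p of the list was 0.117 (ncf1, an oxidase subunit). The part of neutrophil number in the dicp3 levels was not tested.

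The dicp2 genes spread widely inside each genotype. The row dicp2.1 (ENSDARG00000035101) read 4.74, 2.71 and 1.72 CPM in Tg, against 1.74, 7.85 and 6.51 CPM in WT. The row dicp2.2 (ENSDARG00000099539) read 3.56, 0.990 and 0.751 CPM in Tg, against 0.526, 7.44 and 1.66 CPM in WT. In both genes WT replicate 2 was highest and Tg replicate 1 was the highest Tg pool, while WT replicate 1 read at the level of Tg replicate 3 or under it. From lowest to highest WT pool the level differed 4.51-fold for dicp2.1 and 14.1-fold for dicp2.2. The mean was 3.06 ± 1.54 CPM in Tg and 5.37 ± 3.21 CPM in WT for dicp2.1 (SD, n = 3 each), with a log2 fold change of -0.81 (SE 0.62, adjusted p = 0.521). Without WT replicate 1 this became -1.23 (unadjusted p = 0.0399, adjusted p = 0.243). Without WT replicate 2 it was -0.44 (adjusted p = 0.806) and without Tg replicate 3 it was -0.53 (adjusted p = 0.780). For dicp2.2 it was -0.86 (SE 1.02, adjusted p = 0.694), and 0.69 without WT replicate 2. The genes neighbour each other in the RefSeq annotation of another assembly (GRCz12tu), in which dicp3.1 and dicp3.3 stand on either side of dicp3.6.

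**Figure D3:**
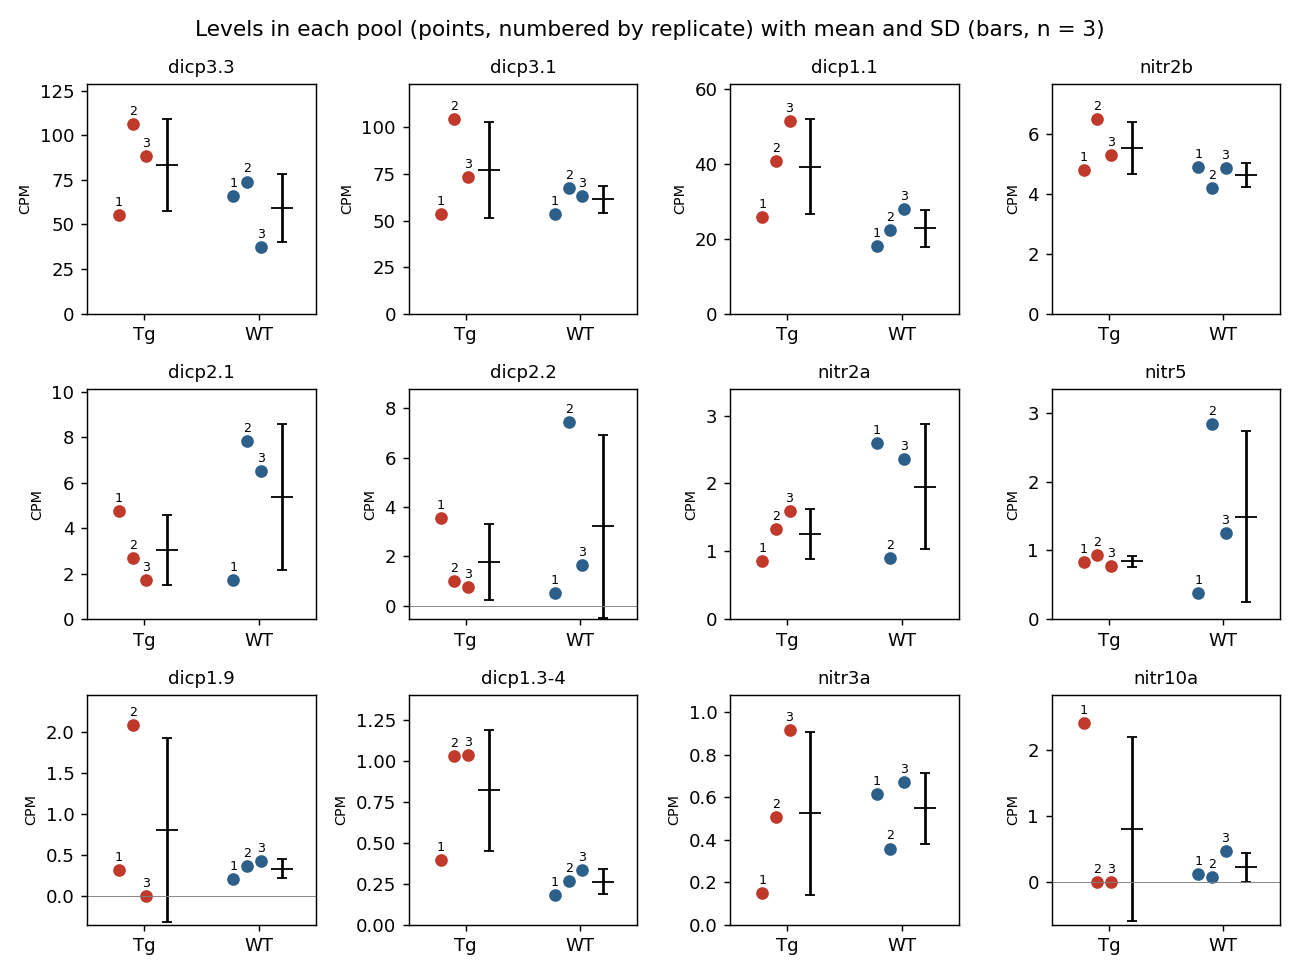
CPM (y axis, from 0 or just below it to hold the SD bars) of the 12 receptor genes with the highest mean CPM in the pools of Tg (red) and WT (blue), numbered by replicate, with mean and SD (black, n = 3). The Tg pools of dicp1.3-4 (0.393 to 1.03 CPM) all lie above the WT pools (0.181 to 0.335 CPM), and in the other 11 genes the genotypes overlap.

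Among the nitr genes, nitr2b (ENSDARG00000000460) was the most read. Of the nitr genes tested it had the closest WT pools, within 1.17-fold. In Tg nitr5 had closer pools (1.21-fold, against 1.36-fold for nitr2b). The row nitr2b read 4.81, 6.53 and 5.31 CPM in Tg, against 4.90, 4.20 and 4.86 CPM in WT. It was the 1 nitr gene tested with a positive log2 fold change (0.25, SE 0.27, adjusted p = 0.650). Its interval ran from 0.773-fold to 1.84-fold. It held 39.6, 65.0 and 49.7% of all nitr counts in Tg and 37.6 to 40.5% in WT. Its neighbour nitr2a (ENSDARG00000043398) read 0.862, 1.33 and 1.59 CPM in Tg, against 2.60, 0.896 and 2.36 CPM in WT. The WT pools of nitr2a thus held the highest values and a value within the Tg range, and its log2 fold change was -0.63 (SE 0.58, adjusted p = 0.601). The nitr2 rows summed to 5.68, 7.86 and 6.89 CPM in Tg, against 7.49, 5.09 and 7.22 CPM in WT, and the other 22 nitr genes gave 6.48, 2.18 and 3.79 CPM in Tg, against 5.50, 6.06 and 4.77 CPM in WT. In the sum of the other 22, Tg replicates 2 and 3 lay under every WT pool and Tg replicate 1 above every WT pool.

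The row nitr5 (ENSDARG00000077557) stood at 0.824, 0.930 and 0.768 CPM in Tg, against 0.381, 2.83 and 1.25 CPM in WT. The Tg pools were within 1.21-fold of each other and the WT pools 7.43-fold apart. Its log2 fold change of -0.82 (SE 0.78, adjusted p = 0.611) became 0.041 without WT replicate 2. The row nitr3a (ENSDARG00000077998) stood at 0.150, 0.505 and 0.918 CPM in Tg, against 0.617, 0.359 and 0.671 CPM in WT, with a log2 fold change of -0.064 (SE 0.91, adjusted p = 0.978). Here it was the Tg pools that lay apart, 6.13-fold from lowest to highest. The row nitr13 (ENSDARG00000036125) had 10, 0 and 21 counts in Tg and 27, 55 and 45 counts in WT, or 0.187, 0 and 0.351 CPM against 0.490, 0.986 and 0.686 CPM. All Tg pools were under all WT pools, and the log2 fold change was -1.99 (SE 1.33, adjusted p = 0.460). In GRCz12tu it lies on another chromosome than the other 20 nitr genes that matched by symbol.

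Of the remaining 3 nitr genes tested, nitr4a had 34, 0 and 4 counts in Tg and 55, 47 and 12 in WT. nitr7a had 0, 14 and 24 counts in Tg and 23, 0 and 30 in WT, and nitr1a had 11, 2 and 16 in Tg and 23, 27 and 0 in WT. Each of them had a pool without counts beside a pool of the same genotype with over 10. Their adjusted p ran from 0.645 to 0.938.

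**Figure D4:**
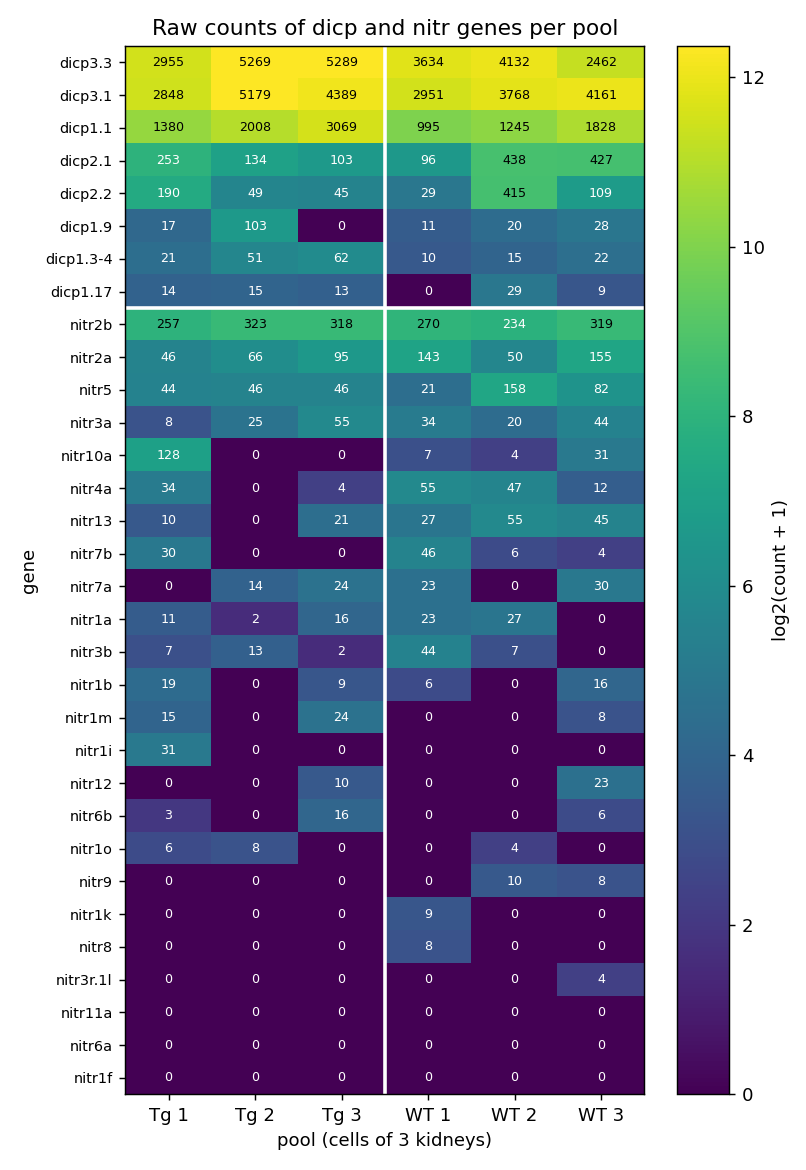
Raw counts of all 8 dicp and 24 nitr genes (rows) in the 3 Tg and 3 WT pools (columns), printed in each cell and shaded by log2(count + 1). Zeros are scattered over the nitr rows in both genotypes, and Tg 2 has the fewest nitr rows with counts (8 of 24).

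Many nitr genes were read in some pools of a genotype and not in others. Of the 24, 15, 8 and 13 had at least 1 count in Tg replicates 1, 2 and 3, against 14, 12 and 15 in WT. Tg replicate 2 was lowest, and it was also the pool with the fewest rows of any kind with counts (20485, against 21200 to 22445 in the other 5). Across the 6 libraries, 4 nitr genes had counts in all, 17 in some and 3 in none (nitr11a, nitr6a and nitr1f). Of the 8 dicp genes, 6 had counts in all libraries and 2 in 5 of them.

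The plainest case was nitr10a (ENSDARG00000087920), too uneven to pass the filter, with 128, 0 and 0 counts in Tg and 7, 4 and 31 in WT. Tg replicate 1 alone held 75.3% of its counts over the 6 libraries, at 2.40 CPM, at least 39.6-fold above Tg replicate 2. The row nitr1i (ENSDARG00000033963) had 31 counts, all of them in Tg replicate 1. Among the lowest rows, nitr9, the activating receptor, had no count in any Tg pool and 0, 10 and 8 counts in WT. Its WT mean of 0.1004 CPM is close to the limit that a count of 0 allows, and the difference was not detectable at this depth (unadjusted p = 0.0933 without a filter on low counts). The adaptor gene tyrobp was low as well, at 0.319, 1.19 and 0.567 CPM in Tg and 0.853, 0.520 and 0.488 CPM in WT.

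The other 7 untested nitr genes with counts in more than 1 library had 18 to 86 counts in all. The row nitr7b had 30, 0 and 0 counts in Tg and 46, 6 and 4 in WT, and nitr3b had 7, 13 and 2 in Tg and 44, 7 and 0 in WT. Counts of nitr1b, nitr1m, nitr12, nitr6b and nitr1o did not pass 24 in any library. In Tg replicate 2 and WT replicate 2 none of nitr1b, nitr1m, nitr12 and nitr6b had a count, while WT replicate 3 had counts of all 4. The row nitr1o ran the other way, with 6, 8 and 0 counts in Tg and 0, 4 and 0 in WT. Each of nitr1k, nitr8 and nitr3r.1l had under 10 counts, all in 1 WT pool.

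Spread between pools of the same genotype was wide for these genes. The gene-wise dispersion, the squared coefficient of variation between pools beyond counting error, had a median of 0.527 in the 16 genes tested and of 0.117 in all genes tested. Dispersion falls with level, and among genes with a mean under 10 CPM the medians were 0.739 for the 13 receptor genes and 0.347 for all 10001. These sets are not matched for level, since their median levels were 0.541 CPM and 1.97 CPM. The 3 heavily read genes dicp3.1, dicp1.1 and dicp3.3 had 0.0695, 0.0852 and 0.0974, beside a median of 0.0546 over the genes at 10 CPM or more. The lowest rank was that of dicp3.1, above 34.02% of all genes tested, and the highest that of nitr7a, above 96.7%. From lowest to highest pool, with zeros set to the limit of 3 counts, the median gene of the 16 differed 2.69-fold within Tg and 2.52-fold within WT, beside 1.49-fold and 1.57-fold over all genes tested.

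**Figure D5:**
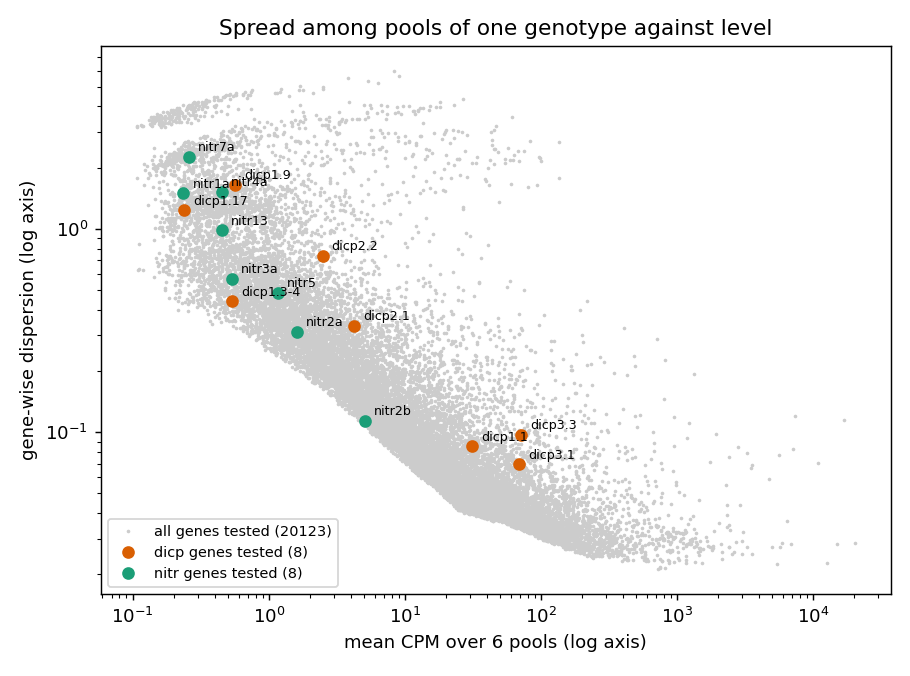
Gene-wise dispersion (y axis, log) against mean CPM over the 6 pools (x axis, log) for all 20123 genes tested (grey), dicp genes (orange) and nitr genes (green). Dispersion was 0.0695 for dicp3.1 and 2.27 for nitr7a, and 12 of the 16 receptor genes lie above the median over all genes tested.

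No gene listed as a signalling partner of such receptors passed the test. Of 29 rows matched to that list, 4 were higher and 1 lower at an unadjusted p under 0.05, a share no higher than the 19.8% of all genes tested, and the median log2 fold change was 0.091. The phosphatase gene ptpn6 read 328, 386 and 309 CPM in Tg, against 296, 340 and 316 CPM in WT (adjusted p = 0.696). The smallest adjusted p of the list was that of fcer1g, an adaptor with an activating tyrosine motif, at 38.3, 44.1 and 38.1 CPM in Tg and 63.1, 62.6 and 64.3 CPM in WT (log2 fold change -0.66, SE 0.12, adjusted p = 0.0686). Its pools did not overlap, and the related row fcer1gl had overlapping pools, at 255 to 417 CPM in Tg and 282 to 337 CPM in WT. The tyrosine kinase gene btk (adjusted p = 0.0853), the phosphatase gene ptpn11b (0.0930) and the adaptor gene lat (0.123) were next, all with higher means in Tg. The zeta chain gene cd247l stood at 2.36, 5.27 and 4.41 CPM in Tg, against 4.86, 5.36 and 2.99 CPM in WT.

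Of 31 rows of a list of cytotoxic lymphocyte genes none passed the test, with 5 higher and 2 lower at an unadjusted p under 0.05 (19.8% of all genes tested) and a median log2 fold change of 0.10. The NK-lysin gene nkl.4 read 30.7, 22.4 and 21.4 CPM in Tg, against 16.3, 6.72 and 5.197 CPM in WT, without overlap (log2 fold change 1.40, SE 0.44, adjusted p = 0.153). The cytokine receptor gene il2rga had the smallest adjusted p of the list (0.148), with 102 to 131 CPM in Tg and 76.2 to 91.3 CPM in WT. The paralogues of nkl.4, nkl.2 (13.3 to 18.9 CPM in Tg, 8.88 to 27.4 CPM in WT) and nkl.3 (2.19 to 9.46 CPM in Tg, 4.72 to 6.17 CPM in WT), overlapped between genotypes. The regulator gene eomesa read 7.21 to 12.3 CPM in Tg and 6.30 to 9.36 CPM in WT, and tbx21 22.01 to 25.4 CPM in Tg and 10.6 to 20.6 CPM in WT (adjusted p = 0.730 and 0.214).

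T cell markers leaned higher in Tg, with 17 of 22 positive log2 fold changes, a median of 0.42 and none past the test (5 higher and 1 lower at an unadjusted p under 0.05, beside 19.8% of all genes tested). They summed to 350 to 480 CPM in Tg and to 267 to 324 CPM in WT. Without rag1, a recombinase gene of immature lymphocytes left out after its values were seen, the sums overlapped, at 276, 261 and 360 CPM in Tg and 279, 209 and 231 CPM in WT. The median log2 fold change without rag1 was still 0.42, over 21 rows. The kinase gene lck read 28.9, 29.4 and 33.95 CPM in Tg, against 28.0, 18.2 and 20.9 CPM in WT (adjusted p = 0.239). The defining markers did not move together. The co-receptor gene cd8a read 6.35, 5.09 and 10.5 CPM in Tg, against 2.36, 0.879 and 0 CPM in WT (adjusted p = 0.298). Its partner cd8b read 2.94, 2.39 and 4.87 CPM in Tg, against 0.798, 0.233 and 0.122 CPM in WT (log2 fold change 3.14, SE 0.80, adjusted p = 0.112). By contrast cd4-2.2 read 5.00, 5.68 and 7.06 CPM in Tg, against 9.31, 13.4 and 12.7 CPM in WT (adjusted p = 0.109). The log2 fold change was -0.25 for cd4-1 and -0.033 for trbc1. The nitr sum (10.04 to 12.2 CPM in Tg, 11.2 to 12.99 CPM in WT) overlapped between genotypes, and the part of lymphocyte number in the receptor levels was not tested. Among other immunoglobulin-domain receptors, 4 rows were tested, all of the pigrl family. Of these pigrl2.3 read 57.8, 105 and 88.0 CPM in Tg, against 40.3, 58.1 and 24.5 CPM in WT (log2 fold change 1.03, SE 0.34, adjusted p = 0.173), highest in the same 3 pools as dicp3.1 and dicp3.3. The other pigrl rows tested did not share that order. Both pigrl4.2 and pigrl3.5 were highest in Tg replicate 1 (8.19 and 1.97 CPM), and pigrl2.4 in WT replicate 3 (9.68 CPM).

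Other marker lists were read for the cells the pools held. Of 16 stem and progenitor genes 6 passed the test, beside 0.596% of all genes tested, but hoxa9a and meis1b are the genes of the transgenes. Without both, set aside after their values were seen, 4 of 14 passed (gata2b, kita, cd34 and spi2), all higher in Tg, with a median log2 fold change of 0.69. Of 18 genes on the macrophage list csf1rb alone passed, higher in Tg, while 13 of the 18 log2 fold changes were negative, with a median of -0.19. The study names csf1rb among genes overexpressed in acute myeloid leukaemia, not as a macrophage marker. The macrophage genes csf1ra (-1.06, adjusted p = 0.0770) and irf8 (-0.74, adjusted p = 0.0918) were the 2 lower at an unadjusted p under 0.05. None passed among 14 B cell genes (median 0.23), 14 erythroid genes (median 0.016) and 12 thrombocyte genes (median 0.17). At an unadjusted p under 0.05 stood 3 higher B cell genes, 1 lower erythroid gene (hbae1.1) and 4 higher thrombocyte genes. These counts, and that of the macrophage genes, stand beside 1826 higher and 2165 lower among the 20123 genes tested (19.8% in both directions together).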

How the data were processed

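Paired-end mRNA reads were trimmed (cutadapt 1.9) and mapped by the authors (HISAT2 2.0.4, genome build GRCz11). StringTie 1.3.4d built the transcripts. Whole, unnormalized counts of each gene make up the deposited table, and no source used here names the step behind them. Of 32057 rows, 28988 had a symbol in the name table, and members were matched by that symbol. Other genes were matched by their own or their human symbol, taking the row with most counts. Listed genes that matched no row were left out of the counts and sums of their lists. Of the 32 members, 25 matched a RefSeq symbol, which was used for neighbours alone.

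Low genes were removed with filterByExpr (edgeR 4.0.16, R 4.3.3). After TMM scaling, glmQLFit and glmQLFTest compared Tg with WT in a two-sided test, and p-values were adjusted by Benjamini-Hochberg across the whole filtered table. Alternatives were DESeq2 1.42.0, limma-voom (limma 3.58.1), other scalings, no filter, a replicate block and leaving out each library. The code was tested on simulated data with known changes in a small share of the genes. There the quasi-likelihood test recovered 1% of 2-fold and 51% of 4-fold changes at an adjusted p under 0.05. For limma-voom the shares were 2% and 48%. DESeq2 recovered 28% and 72%, with 71 false calls among 171. Libraries of a genotype differed by far more than counting error. The study's methods call the pools of a genotype biological replicates. The members and lists were chosen with earlier results of these data known. Receptor genes with their values in each pool were the 12 of highest mean CPM, any with an unadjusted p under 0.05, rows with at least 10 counts in 1 genotype only, and rows at 0 in a pool with another pool of that genotype above 1 CPM. Values of further receptor rows were added after they were seen, so that each is accounted for. List genes were those past the test, some of the smallest p, and a few set by name. Chosen after their values were seen were lyz, npsn, csf3r, mmp13a, hbae1.1, tbx21, cd8a, cd8b, cd4-1, trbc1, fcer1gl, pigrl4.2, pigrl3.5 and pigrl2.4.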

Additional observations from a re-analysis of the deposited data

How the results depend on the processing

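The count of 0 receptor genes past the test held under all 12 alternatives run, with a smallest adjusted p of 0.0743 (dicp1.1, DESeq2). Over all genes the count of 120 became 2053 with DESeq2, 50 with limma-voom and 1 with the replicate number as a block, and 0 to 88 when 1 library was left out. The count was 0 without Tg replicate 2 or 3 (3277 and 2839 genes at an unadjusted p under 0.05), 1 without WT replicate 3 and 4 without WT replicate 2. No pairing of the samples by replicate number was seen. Deviations of same-numbered pools correlated at -0.0869, -0.136 and 0.129, and those of differently numbered pools at -0.18 to 0.25. With 3 pools per genotype these values cannot exclude a pairing. The median log2 fold change of the receptor genes tested (-0.21) became -0.35 with no filter and -0.38 with DESeq2, both over 29 genes. When 1 library was left out it lay between -0.37 and 0.23, over 17 to 21 genes, as the filter was rerun. The sign of dicp1.9 turned with limma-voom (-1.07) and with the block (-0.025), and its range without 1 library was -1.04 to 1.86. Ranges without 1 library that also crossed 0 were -0.74 to 0.38 for nitr3a, -1.88 to 0.69 for dicp2.2 and -1.28 to 0.041 for nitr5. The median over all genes (0.01) was -0.0073 with RLE size factors and -0.061 with library size alone. Low or uneven counts kept 13 receptor genes with counts out of the test (nitr10a for unevenness). Without the filter, their smallest adjusted p was 0.383.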
